A study of Oryza sativa with 9 samples.

Results

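Rice makes serotonin from tryptophan, and 8 loci of that route and its chromosome 8 surroundings are described here, out of 34119 deposited genes. They are the anthranilate synthase genes ASA1 (LOC_Os03g61120) and ASA2 (LOC_Os03g15780), a tryptophan synthase beta gene (LOC_Os08g04180), 3 tryptophan decarboxylase genes (LOC_Os08g04540, LOC_Os08g04560 and LOC_Os07g25590), the tryptamine 5-hydroxylase gene T5H (LOC_Os12g16720) and a terpene synthase gene next to the decarboxylases (LOC_Os08g04500). The loci were chosen by their gene identifiers with the FPKM values of the comparison below already known. Their differences between genotypes are therefore given as a description with no test.

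The libraries were made from polyadenylated RNA of rice seedlings aged 14 days dehydrated with 20% PEG8000 over 3 h (polyethylene glycol lowers the water potential around roots). The wild type (NIP_PEG) was compared with 708OE_PEG, 1 line labelled SDG708-YFP-1 that overexpresses SDG708, a SET-domain protein, with a YFP tag. There were 3 repeats per genotype. Those of the wild type were sequenced on 2 lanes each, so that 9 samples gave 6 libraries. All plants of both genotypes were treated with PEG, and the comparison asks how the genotypes differed under it. No source used here gives the promoter of the transgene, and a difference between genotypes cannot be told apart from one that belongs to this line alone.

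In plants, tryptophan is built in plastids from chorismate, the end product of the shikimate pathway. Anthranilate synthase takes chorismate into the branch and is held back by tryptophan itself, and the beta subunit of tryptophan synthase completes the amino acid from indole and serine. Tryptophan decarboxylase then removes the carboxyl group to give tryptamine, and tryptamine 5-hydroxylase, a cytochrome P450 enzyme, turns tryptamine into serotonin. In rice leaves, tryptamine, serotonin and their amides are known as compounds that accumulate after infection. Tryptamine and serotonin can be acylated, and serotonin can be carried on to melatonin.

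The FPKM values (fragments per kilobase of gene, scaled to library size) implied library sizes of 17358284, 24878818 and 20017868 reads in the wild type. Those of the overexpressor were 13297803, 13605145 and 18129860 reads. These sizes are the scaling behind FPKM and not the counted depth, since the reads counted over all recovered genes came to 1.049 to 1.072 times the size in the wild type and 0.971 to 0.997 times in the overexpressor. Whether repeats were separate batches of plants is not in the labels, so the p-values rest on a library-to-library spread that could be purely technical. The variance between pairs of overexpression libraries was 1.46 to 1.98 times the variance of counting noise, and between pairs of wild-type libraries 3.71 to 10.6 times. The lane was labelled for the wild type alone and cannot be told apart from the genotype. SDG708 itself was not analysed here. LOC_Os04g34976, whose number lies close to the one known for SDG708 but which no table used here names, had an FPKM of 5.15 ± 0.665 in the wild type and 149.9 ± 3.70 in the overexpressor (SD, n = 3 each). Of 7 markers of green shoot tissue all rose, and their summed FPKM lay between 6017 and 7708 in the wild type and between 11760 and 12230 in the overexpressor. One of these rises, that of the chlorophyll-binding protein gene CAB1R, missed the threshold without a filter on low values (adjusted p = 0.055 by limma). Of 5 root markers 2 were at 0 in every library, and the summed FPKM of the 5 was 2.47 to 3.47 in wild-type libraries and 2.56 to 2.88 in the overexpressor. Nearly all of it came from Lsi1, the only root marker high enough to test, at 2.39 to 3.27 in wild-type libraries and 2.39 to 2.66 in the overexpressor. The part of this shift in green tissue transcripts in the results below was not tested. In these seedling libraries of mixed cells, fewer cells of a type and less RNA per cell cannot be told apart.

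The widest difference between genotypes among the 8 loci, by ratio of mean FPKM, was that of a tryptophan decarboxylase gene. LOC_Os08g04540 had an FPKM of 0.783, 0.861 and 0.966 in the wild-type libraries, which rested on 26, 41 and 37 reads. In the overexpression libraries it stood at 12.2, 13.3 and 12.2, from 311, 346 and 423 reads. The groups lay far apart, with means of 0.870 ± 0.0919 and 12.6 ± 0.625 (SD, n = 3 each), a ratio of 14.4. Counting error of the shallowest of these values was 19.6%.

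LOC_Os08g04560, the next locus of the table by number and also a tryptophan decarboxylase gene, had an FPKM of 3.15, 3.01 and 3.11 in the wild type. It stood at 7.87, 8.73 and 7.75 in the overexpressor, again with no overlap. The means were 3.09 ± 0.0705 and 8.11 ± 0.536 (SD, n = 3 each), a ratio of 2.63. Reads of 2 neighbouring genes for the same enzyme may be split between them in counting, so their separate levels are uncertain.

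The decarboxylase gene on chromosome 7, LOC_Os07g25590 or TDC2, was low in every library. Its FPKM was 0.639, 0.753 and 0.711 in the wild type, then 1.27, 0.793 and 0.909 in the overexpressor. Replicate 1 of the overexpressor stood above its 2 companions, and the lowest overexpression value was only just above the highest wild-type value. The means of 0.701 ± 0.0577 and 0.992 ± 0.251 (SD, n = 3 each) had a ratio of 1.42. The log2(FPKM + 1) difference of TDC2, 0.22 over all libraries, was 0.12 without 708OE_PEG replicate 1. With its FPKM under 1 in most libraries, TDC2 was the 1 locus of the 8 that did not pass the filter on low values (FPKM of 1 or more in 3 or more libraries). LOC_Os08g04540 and the terpene synthase gene passed it through the overexpression libraries only.

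The balance among the 3 decarboxylase genes also differed between genotypes. In the wild type, LOC_Os08g04560 held 68.9%, 65.1% and 65.0% of their summed FPKM, and LOC_Os08g04540 held 17.1%, 18.6% and 20.2%. In the overexpressor LOC_Os08g04540 was the larger, with 57.2%, 58.3% and 58.5%, against 36.8%, 38.3% and 37.2% for LOC_Os08g04560. Within a library, where sequencing depth cancels, the FPKM ratio of LOC_Os08g04540 to LOC_Os08g04560 was 0.282 ± 0.0313 in wild-type libraries and 1.55 ± 0.0259 in the overexpressor (SD, n = 3 each). The share of TDC2 was 14.0% to 16.3% in wild-type libraries and 3.48% to 5.96% in the overexpressor. Summed over the 3 loci, FPKM was 4.66 ± 0.111 and 21.7 ± 1.02 (SD, n = 3 each), a ratio of 4.65. The shares, the sum and ratios to it depend on the gene lengths behind FPKM, 6674 bases for TDC2, 1914 for LOC_Os08g04540 and 2122 for LOC_Os08g04560. Whether these lengths include all introns was not checked for the chromosome 8 loci, and the reference gene span of TDC2 is 8716 bases. In total reads of the wild type, TDC2 had 294, LOC_Os08g04540 had 104 and LOC_Os08g04560 had 407. In the overexpressor they had 295, 1080 and 772. These totals are not scaled to library size, so they compare the loci within a genotype and not the genotypes.

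**Figure D1:**
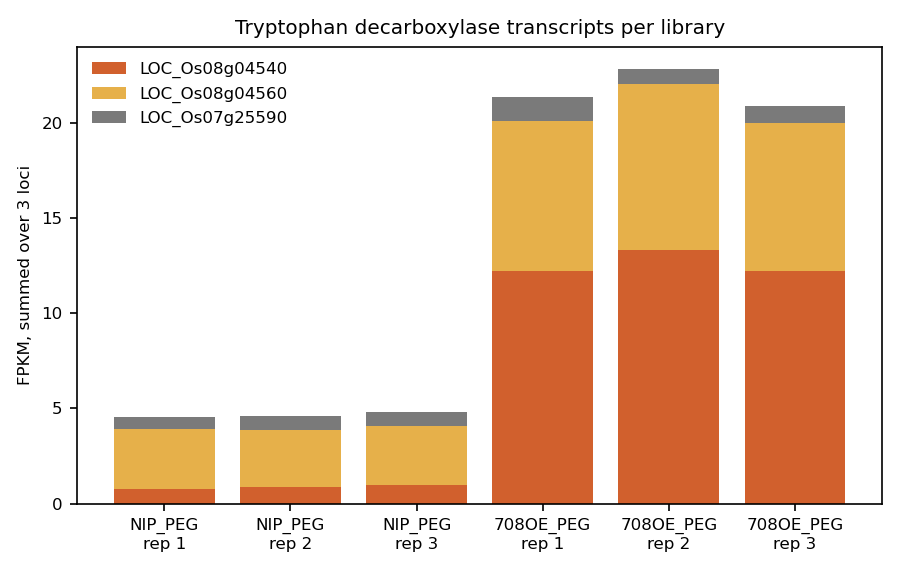
FPKM of the 3 tryptophan decarboxylase loci, stacked, in each of the 3 wild-type (NIP_PEG) and 3 overexpression (708OE_PEG) libraries. The stacks reach 4.57 to 4.78 in the wild type and 20.8 to 22.8 in the overexpressor, and LOC_Os08g04540 grows from the middle share of FPKM to the largest one. By reads, LOC_Os08g04540 was the lowest of the 3 loci in the wild type.

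T5H, which acts directly after the decarboxylases, did not share their difference. Its FPKM was 37.6, 44.5 and 44.6 in wild-type libraries and 40.2, 38.4 and 38.0 in the overexpressor. The groups overlapped, since replicate 1 of the wild type was the lowest of all 6 libraries. The means were 42.2 ± 3.97 and 38.9 ± 1.18 (SD, n = 3 each), a ratio of 0.920. The FPKM of T5H over the summed FPKM of the decarboxylases was 9.06 ± 0.726 in wild-type libraries and 1.80 ± 0.101 in the overexpressor (SD, n = 3 each). T5H was thus the most abundant transcript of the route in the wild type per base of gene and stayed above the decarboxylases in every library. The closest tested profiles to that of T5H over the 6 libraries, in log2(FPKM + 1) centred on the wild-type mean, were those of LOC_Os01g08290 and LOC_Os03g10650, at Euclidean distances of 0.0394 and 0.0427. Neither locus is named in the tables used here. Both were also lowest in replicate 1 among the wild-type libraries, which follows from how they were chosen.

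Upstream, the tryptophan synthase beta gene LOC_Os08g04180 had an FPKM of 28.9, 24.8 and 26.4 in the wild type and 39.7, 40.8 and 40.8 in the overexpressor. All 3 overexpression values were above all wild-type values, with means of 26.7 ± 2.08 and 40.4 ± 0.626 (SD, n = 3 each) and a ratio of 1.51. At 1732 reads or more per library it was among the best counted of the 8 loci. In the overexpressor its range overlapped that of T5H, while in the wild type it lay below T5H in every library.

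The genes for the alpha subunit of anthranilate synthase, which carries the catalytic site, differed from each other. ASA2 had an FPKM of 7.17, 7.04 and 7.53 in the wild type and 9.25, 9.16 and 9.18 in the overexpressor, a ratio of means of 1.27 with no overlap. ASA1 had 4.38, 4.51 and 4.14 against 3.89, 4.53 and 4.31, and its groups overlapped, with a ratio of 0.977. The ASA2 to ASA1 ratio within a library was 1.56 to 1.82 in wild-type libraries and 2.02 to 2.38 in the overexpressor. ASA1 and ASA2 together came to an FPKM of 11.6 ± 0.0709 and 13.4 ± 0.276 (SD, n = 3 each).

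The terpene synthase gene LOC_Os08g04500 belongs to another branch of metabolism, the making of terpenes, and is included for its place beside the decarboxylases. Its FPKM was 0.550, 0.778 and 0.490 in the wild type, from 37, 75 and 38 reads. In the overexpressor it was 1.78, 2.37 and 2.50, from 92, 125 and 176 reads. The groups did not overlap, and replicate 1 was the lowest of the overexpression libraries. The means of 0.606 ± 0.152 and 2.22 ± 0.383 (SD, n = 3 each) gave a ratio of 3.66.

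**Figure D2:**
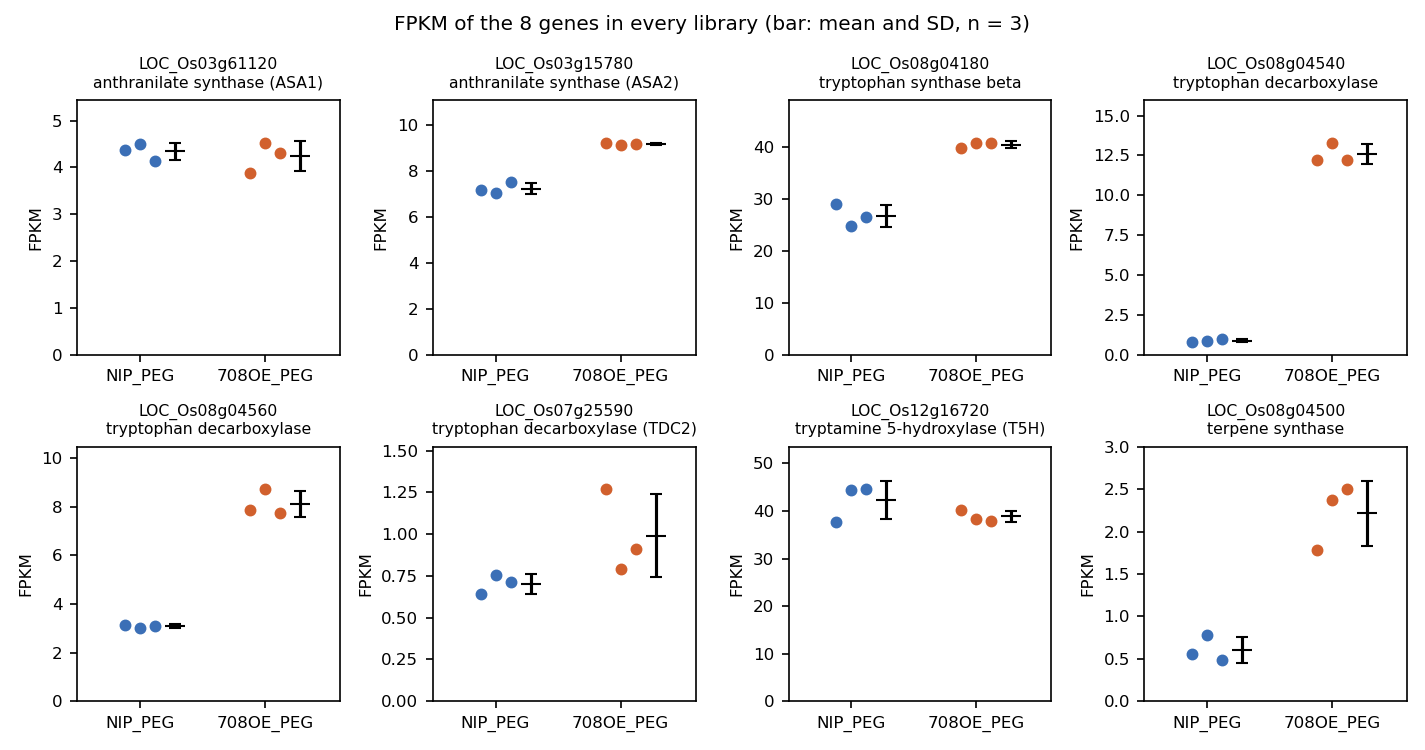
FPKM of the 8 loci, 1 panel each with its own axis from 0, in the 3 wild-type (NIP_PEG, blue) and 3 overexpression (708OE_PEG, orange) libraries, with the mean and SD beside the points. The groups are apart for 6 loci and overlap for ASA1 and T5H.

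Of the 8 loci, 6 had every overexpression library above every wild-type library, 2 had overlapping groups and none had the reverse order. Among the 18569 genes that passed the filter, 20.0% had every overexpression library above every wild-type library and 30.7% had the reverse order. The bases differ, since the 6 loci include TDC2, which did not pass the filter, and the 2 loci that passed through the overexpression libraries only, and nothing is read from the count. On the log2(FPKM + 1) scale the differences were -0.03 for ASA1, 0.31 for ASA2, 0.58 for LOC_Os08g04180, 2.86 for LOC_Os08g04540 and 1.15 for LOC_Os08g04560. They were 0.22 for TDC2, -0.11 for T5H and 1.0 for the terpene synthase gene. This scale understates differences of low genes, and the authors' deposited table gives log2 fold changes of 3.85 for LOC_Os08g04540, 1.86 for LOC_Os08g04500, 1.39 for LOC_Os08g04560 and 0.49 for TDC2. With a pseudocount of 0.1 in place of 1 the differences of these loci, in the same order, were 3.71, 1.72, 1.36 and 0.43. With a pseudocount of 5 they were 1.58, 0.36, 0.70 and 0.07. After scaling libraries to their counted reads, ASA1 stood at 0.06, the opposite sign, and T5H at -0.01.

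In the wild type the order of mean FPKM was T5H, LOC_Os08g04180, ASA2, ASA1, LOC_Os08g04560, LOC_Os08g04540, TDC2 and the terpene synthase gene. Only the last pair, TDC2 and the terpene synthase gene, had overlapping ranges. In the overexpressor the order was LOC_Os08g04180, T5H, LOC_Os08g04540, ASA2, LOC_Os08g04560, ASA1, the terpene synthase gene and TDC2. There the first pair overlapped. Lengths behind FPKM were within 10 bases of the reference gene span, introns included, for 13 of 27 genes looked up. The length was 6674 bases for TDC2 and 1914 for LOC_Os08g04540, which was not looked up. Where a length includes introns, an intron-rich gene reads lower per base than its transcript would.

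To place the 8 loci in the wider pathway, 51 other genes were listed by biochemical step. Of these, 15 have a symbol that the reference table supports, and the step of the others rests on the listing alone. Of all tested genes 34.3% were called at an adjusted p below 0.05 (limma, Benjamini-Hochberg), 14.3% higher and 20.0% lower in the overexpressor. Of the called genes 41.7% were higher, a share that became 63.9% after scaling libraries to their counted reads. Of the 35 listed genes that could be tested, 11 rose, 8 fell and 16 did not pass, with a median log2 difference of 0.08 against -0.04 over all tested genes. Among the rises 8 kept their call under every alternative in which they were tested, and among the falls 2 did. The number of falls was 3 after scaling libraries to their counted reads, 4 with voom on whole reads and 2 without NIP_PEG replicate 3. It was 4 without 708OE_PEG replicate 1 or 2 and 5 without replicate 3. Rises and falls together numbered 10 when NIP_PEG replicate 3 was left out and 12 when 708OE_PEG replicate 1 or 2 was.

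Among 12 shikimate pathway genes, which supply chorismate, 3 rose, 4 fell and 5 did not pass, and the median log2 difference was -0.12. Over all tested genes 14.3% were called higher and 20.0% lower. DAHPS1, for the synthase at the entry of the pathway, rose in FPKM from 27.2 ± 0.981 to 39.0 ± 0.200 (SD over 3 libraries per genotype), a log2 difference of 0.51 (SE 0.06, adjusted p = 0.00066 by limma). Its relative DAHPS2 had a log2 difference of 0.18 (adjusted p = 0.041 by limma), a call lost under 7 alternatives with adjusted p from 0.063 to 0.14. SK2, a shikimate kinase gene, had a log2 difference of 0.34 (adjusted p = 0.022 by limma), which was lost under 6 alternatives with adjusted p from 0.051 to 0.078. The kinase genes SK1 and SK3 did not pass, at -0.09 and 0.33. SK3 passed under 8 alternatives, voom on whole reads (adjusted p = 0.015 by limma) among them. Of the 3 rises 1 and of the 4 falls 1 kept the call under every alternative in which they were tested.

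The other genes of tryptophan synthesis numbered 12, of which 10 were tested, 4 rose, 6 did not pass and none fell, beside 14.3% higher and 20.0% lower over all tested genes. None was at an unadjusted p under 0.05 by limma in the downward direction. Voom on whole reads made no downward call either, but with it 62.5% of the genes called across the table were higher. The median log2 difference was 0.19. LOC_Os09g08130, which the reference table does not name, rose most among these 10, with FPKM going from 2.43 ± 0.332 to 12.6 ± 0.442 (SD over 3 libraries per genotype), a log2 difference of 1.99 (SE 0.09, adjusted p = 3.9e-06 by limma). ASB1 and ASB2, for the beta subunits that work with the products of ASA1 and ASA2, did not pass, with log2 differences of 0.16 (adjusted p = 0.23 by limma) and 0.08 (adjusted p = 0.51 by limma). ASB1 passed without NIP_PEG replicate 1 (adjusted p = 0.017 by limma) and with voom on whole reads (adjusted p = 0.046 by limma). One of the 4 rises, LOC_Os07g08430, lost its call under 5 alternatives with adjusted p by limma from 0.058 to 0.09.

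Chorismate also feeds phenylalanine and tyrosine synthesis, the branch that competes with anthranilate synthase. Of 8 genes listed for it 5 were tested, 1 rose, 3 fell and 1 did not pass, with a median log2 difference of -0.30. Beside these few genes, 14.3% of all tested genes were called higher and 20.0% lower. LOC_Os03g17730, which the reference table does not name, fell in FPKM from 20.4 ± 0.541 to 13.1 ± 0.354 (SD over 3 libraries per genotype), a log2 difference of -0.60 (SE 0.06, adjusted p = 0.00033 by limma). The 1 rise was that of LOC_Os04g33390, also without a name there, with FPKM going from 8.27 ± 0.494 to 12.7 ± 0.813 (SD over 3 libraries per genotype), a log2 difference of 0.57 (SE 0.07, adjusted p = 0.0012 by limma), which kept its call under every alternative in which it was tested. The other 2 falls each lost their call under some alternatives, with adjusted p by limma of at most 0.084.

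Downstream of tryptamine and serotonin, 6 genes were listed and 5 tested, of which 3 rose, 1 fell and 1 did not pass. The shares over all tested genes were 14.3% higher and 20.0% lower, and with 5 genes nothing is read from these counts. TBT2, for a tryptamine benzoyltransferase, an enzyme that joins a benzoyl group to tryptamine, had an FPKM of 1.03 ± 0.0936 in the wild type and 5.61 ± 0.368 in the overexpressor (SD, n = 3 each). Its log2 difference was 1.70 (SE 0.08, adjusted p = 5.8e-06 by limma), and the 3 overexpression libraries were all above the wild type. The related TBT1 was too low to test, with 0, 0 and 2 reads in the wild type and 13, 3 and 14 in the overexpressor.

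On the way from serotonin to melatonin, SNAT2, for a serotonin N-acetyltransferase, rose in FPKM from 4.12 ± 0.365 to 7.09 ± 0.847 (SD over 3 libraries per genotype), a log2 difference of 0.66 (SE 0.10, adjusted p = 0.0019 by limma). SNAT1, for an enzyme of the same activity, did not pass (log2 difference 0.06, adjusted p = 0.54 by limma). ASMT1, for an N-acetylserotonin methyltransferase, fell with a log2 difference of -0.31 (adjusted p = 0.012 by limma). The fall of ASMT1 was lost under 4 alternatives, with adjusted p by limma from 0.051 to 0.058.

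Of the 3 other aromatic amino acid decarboxylase genes listed, 1 was tested, at a log2 difference of -0.20 that did not pass (adjusted p = 0.18 by limma). Of 10 genes listed for the route from tryptophan to auxin 2 were tested, and both did not pass. TAR2, for a tryptophan aminotransferase, was at 0.27 (adjusted p = 0.059 by limma) and passed under 4 alternatives. YUCCA1, for the enzyme after it, was under the filter, with an FPKM of 0.381 ± 0.0651 in the wild type and 0.596 ± 0.178 in the overexpressor (SD, n = 3 each).

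**Figure D3:**
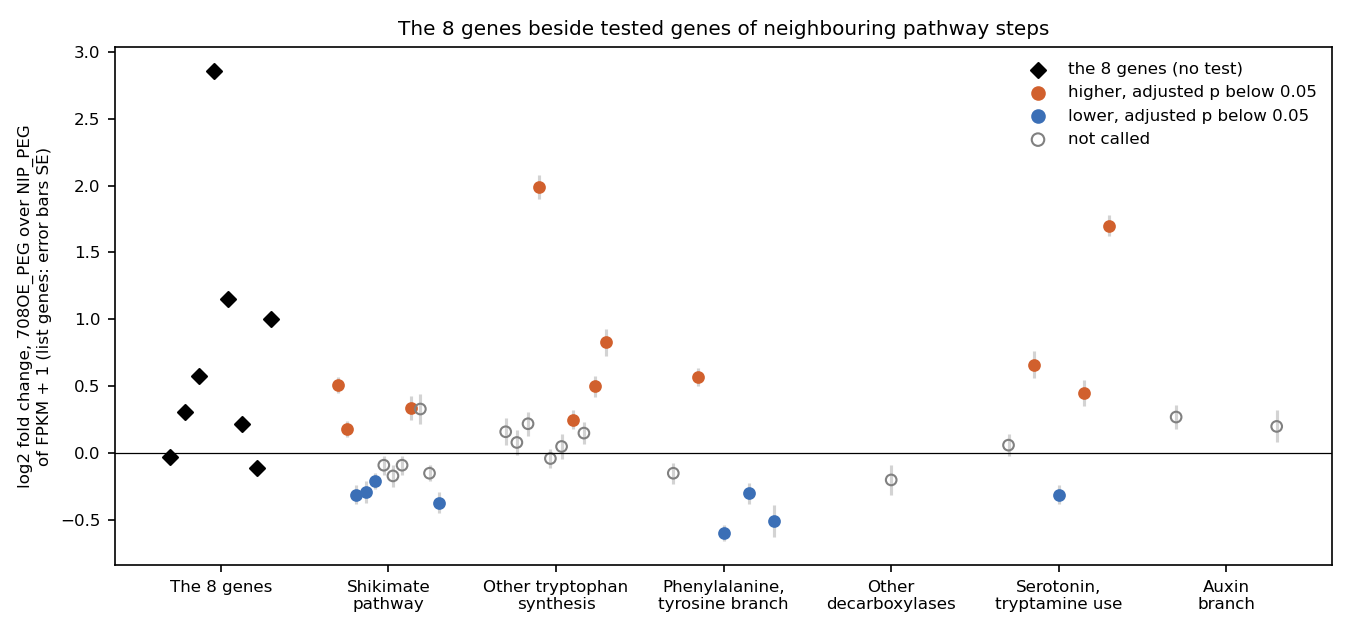
Difference in log2(FPKM + 1), overexpression (708OE_PEG) over wild type (NIP_PEG), for the 8 loci (black diamonds, from left to right ASA1, ASA2, LOC_Os08g04180, LOC_Os08g04540, LOC_Os08g04560, TDC2, T5H and LOC_Os08g04500, no test) and for the 35 tested genes of 6 pathway lists with their SE. Filled circles passed at an adjusted p below 0.05 (limma), and the 2 highest of them are LOC_Os09g08130 at 1.99 and TBT2 at 1.70.

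The 3 loci close together on chromosome 8, LOC_Os08g04500, LOC_Os08g04540 and LOC_Os08g04560, were viewed among the 19 loci of the table numbered from LOC_Os08g04400 to LOC_Os08g04700. Of the 16 others 9 were tested, 2 rose, 1 fell and 6 did not pass, beside 14.3% higher and 20.0% lower over the whole table. LOC_Os08g04450 rose in FPKM from 40.8 ± 2.62 to 66.9 ± 5.26 (SD over 3 libraries per genotype), a log2 difference of 0.70 (SE 0.08, adjusted p = 0.00062 by limma). LOC_Os08g04630 fell from 9.35 ± 0.238 to 5.27 ± 0.356 (SD, n = 3 each), a log2 difference of -0.72 (SE 0.07, adjusted p = 0.00028 by limma). The other rise, LOC_Os08g04470 (log2 difference 0.43, adjusted p = 0.04 by limma), was lost under 6 alternatives with adjusted p from 0.052 to 0.13. The tables used here name none of the 16.

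Directly around the decarboxylases the table was close to silent. LOC_Os08g04490, the locus before the terpene synthase gene, was at 0 in every library. LOC_Os08g04530, which lies between the terpene synthase gene and the decarboxylases by number, had 0, 1 and 0 reads in the wild type and 5, 2 and 6 in the overexpressor. LOC_Os08g04570 and LOC_Os08g04600, the loci after the decarboxylases, were at 0 in every wild-type library and had an FPKM of 0.0553 ± 0.0557 and 0.0461 ± 0.0798 in the overexpressor (SD, n = 3 each). The next locus, LOC_Os08g04620, had a log2 difference of 0.18 (adjusted p = 0.067 by limma), and passed under 5 alternatives, scaling to counted reads among them (log2 difference 0.29, adjusted p = 0.02 by limma).

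**Figure D4:**
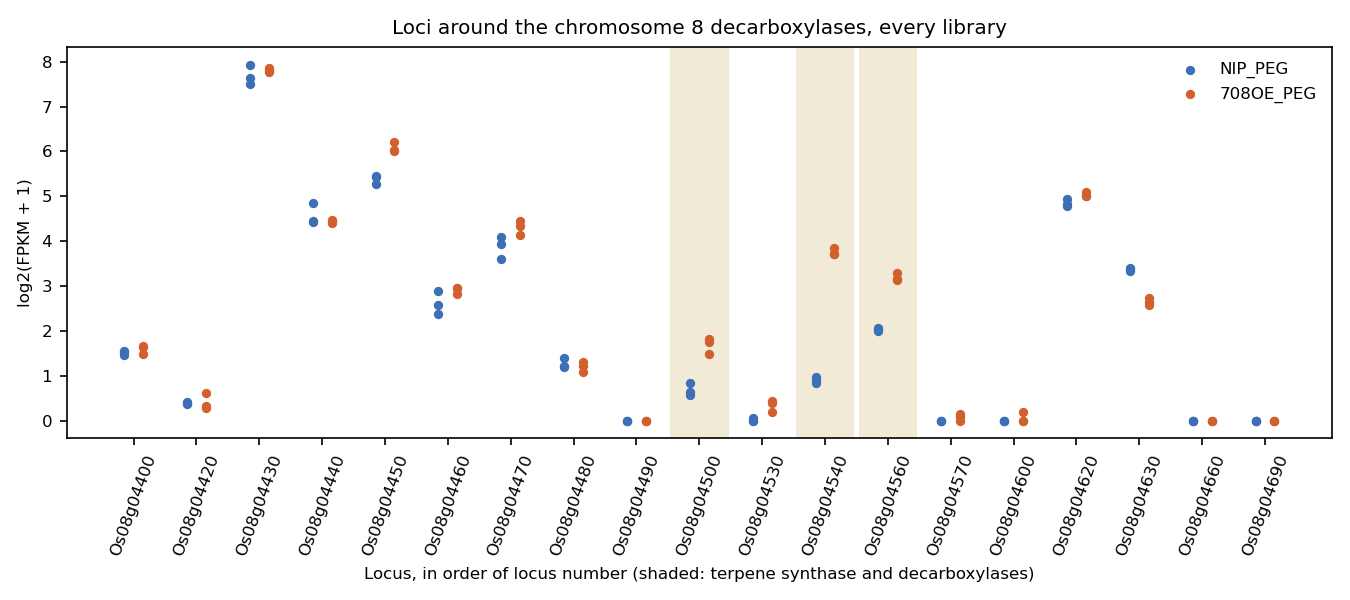
Log2(FPKM + 1) of the 19 table loci around the chromosome 8 decarboxylases, in order of locus number, with 1 point for each wild-type (blue) and overexpression (orange) library. The shaded loci are the terpene synthase gene and the 2 decarboxylase genes, with loci at or near 0 on both sides. The groups are apart for these and for some unshaded loci, LOC_Os08g04450 (overexpressor above) and LOC_Os08g04630 (overexpressor below) among them.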

How the data were processed

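Per the labels' protocols, polyadenylated RNA went into a stranded KAPA library preparation. The authors deposited FPKM values per gene for 6 libraries, with their own log2 fold changes and p-values, per the file headers. Alignment with HISAT2, counting with featureCounts and testing with DESeq2 are tools listed, without versions, in the submitters' processing notes, beside cutadapt, FastQC, deepTools and SAMtools. The sources used here give no build, annotation, strand setting or treatment of reads that map to several places. The deposited p-values were not used. The names of the wild-type columns hold a digit that no label explains, and these columns were taken as wild type by group only.

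Within a gene, FPKM values were whole multiples of the value of 1 read. This gave whole reads for 85.9% of 31263 genes with any read (tolerance 0.02 of a read, at least 4 libraries above 0), all 8 loci included, with library sizes and gene lengths. Lengths were within 10 bases of the RefSeq gene span (ASM3414082v1) for 13 of 27 genes looked up by symbol. Symbols are used for the 24 genes on the same chromosome whose length was within 1.5-fold. No coordinates are printed, since builds may differ.

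Values of log2(FPKM + 1) were tested two-sided in limma 3.58.1 under R 4.3.3 with a variance trend, for the 18569 genes whose FPKM reached 1 in 3 or more libraries, with Benjamini-Hochberg adjustment at 0.05. It and the read recovery were tested on simulated data. For a gene of 1 kb, 1 read equalled 0.0402 to 0.0752 FPKM, and counting errors cover counting only. Named genes were all 8 loci, tested genes of the pathway lists, the chromosome 8 neighbours and the 2 profiles nearest to T5H. The 8 loci carry the gene names under which they were chosen, which the reference table supports only where a symbol is given. Among other genes, an individual role was given only to those with a supported symbol. The step lists also hold genes without one, whose place in a list has no support in the reference table. The values of 1 tested list gene are not reported here. The 8 loci and the lists were chosen with earlier results of these data known. Alternatives were other pseudocounts, filters, scalings, voom on whole reads, leaving out each replicate, 708OE_PEG replicates 1 and 2 as 1 sample and a replicate block.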

Additional observations from a re-analysis of the deposited data

How the results depend on the processing

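The number of the 8 loci with every overexpression library above every wild-type library was also 6 with median-ratio scaling and after scaling libraries to their counted reads. Other pseudocounts, leaving out a library and averaging replicates cannot lower that number. Neither can scaling to counted reads, which raises every overexpression value and lowers every wild-type value. The share over all genes was not computed under these alternatives, and nothing is read from the count here either. The number of genes called across the table, 6360, ranged from 3708 to 7176 when 1 replicate was left out and was 4226 with 708OE_PEG replicates 1 and 2 as 1 sample. Genes called higher, 2654, ranged from 1748 to 3078 without 1 replicate and were 1592 with a mean FPKM of at least 5. Genes called lower, 3706, ranged from 1960 to 4098 without 1 replicate. They were 2077 after scaling libraries to their counted reads, 2244 with voom on whole reads and 2319 with 708OE_PEG replicates 1 and 2 as 1 sample. Of the other pathway genes, between 10 and 21 were called without 1 replicate, and between 2 and 9 were called lower. Lower calls were 3 after scaling libraries to their counted reads and 4 with voom on whole reads. Leaving out 1 replicate moved the number called across the table both ways. It was 6475 without NIP_PEG replicate 1 and 7176 without NIP_PEG replicate 2, and it was below 6360 without any other replicate. Fewer libraries leave fewer degrees of freedom, but the cause of these changes was not tested. No called gene named in the report reversed its direction.

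Whether same-numbered repeats of both genotypes were handled together is not in the labels. Their libraries had correlations of -0.005, -0.002 and -0.045 in deviations from the group means, and differently numbered ones had -0.023 to 0.040. No pairing was visible in these values, which cannot exclude that repeats shared handling. With a replicate block 5619 genes and 18 of the other pathway genes were called. Among the 8 loci, depth limits LOC_Os08g04540 and LOC_Os08g04500 most, with 26 to 41 and 37 to 75 reads in the wild type, and among the others named TBT1 and LOC_Os08g04530 had few reads.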
